A study of Mus musculus with 6 samples.

Results

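The cadherin switch and its transcription factors were followed across 6 arrays through 9 mouse genes taken by their symbol. These were the cadherins Cdh1 and Cdh2, the epithelial adhesion gene Epcam, the intermediate filament gene Vim, and the transcription factor genes Snai1, Snai2, Zeb1, Zeb2 and Twist1. Of the 9 genes, 8 had a probe that carries their symbol alone, out of 22180 genes measured in this way. Zeb2 was represented only by probes that also carry a second gene symbol, so no value is given for it.

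The cells were EB3 mouse embryonic stem cells (mESC), which model the pre-implantation epiblast, and epiblast-like cells (EpiLC) derived from that same line, which model the epiblast just after implantation. To make EpiLC, the cells spent 2 days in N2B27 medium with Activin A at 20 ng/ml and bFGF at 12 ng/ml, and mESC were kept in N2B27 with LIF and BMP4. Each state was exposed for 24 hours to 3 µM CHIR99021 (CHIR, which blocks the kinase GSK3) together with 1 µM PD0325901 (PD, an inhibitor of MEK), or to 3 µM CHIR alone, or was left untreated. Whether the 24 hours fell within or after the 2 days of EpiLC induction is not given in the sources used here, and PD was never given without CHIR. Each of the 6 groups was 1 Mouse Gene 2.0 ST array of 1 cell line, so single-array differences have no replicate error and no p-value. The unit throughout is the authors' normalized linear intensity, averaged on the log2 scale where a gene has more than 1 probe. Median intensity over all probes was between 60.5 and 65.2 on the 6 arrays, and the lowest value of the table was 16. All 8 mESC markers looked at, among them Esrrb and Klf4, fell in EpiLC, and 5 of 8 EpiLC markers rose, both in the limma fit described further on. Without treatment all 8 EpiLC markers were at least 2-fold higher in EpiLC. The summed intensity of these markers was 2908.0 under CHIR with PD, 4904.9 under CHIR and 10591.4 untreated in EpiLC, against 1446.3, 2575.3 and 4043.2 in mESC. Dnmt3b, at 4847.0, was the largest part of the untreated EpiLC sum. Under CHIR with PD, 6 of the 8 were at least 2-fold below untreated EpiLC and 1, Wnt8a, was at least 2-fold above. Of all genes, 1.49% were that much lower and 2.62% that much higher. Wnt8a was at 525.2 in EpiLC under CHIR with PD, against 234.0 in untreated EpiLC, and Fgf5 was at 39.4 against 1258.5.

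E-cadherin, the product of Cdh1, holds epithelial cells together at adherens junctions, where catenins tie it to actin, and EpCAM is a further adhesion protein of epithelial and pluripotent cells. During an epithelial-mesenchymal transition (EMT), as in gastrulating cells of the primitive streak, E-cadherin gives way to N-cadherin, the product of Cdh2, and vimentin, the product of Vim, becomes abundant. The factors Snai1, Snai2, Zeb1 and Zeb2 repress epithelial genes by binding E-box sequences in their promoters, Twist1 is a basic helix-loop-helix factor that acts in the same programme, and microRNAs of the miR-200 family in turn bind Zeb1 and Zeb2 transcripts.

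The 5 mature miR-200 family members are shown because their targets are the Zeb transcripts, and 4 of their hairpin genes were measured on the array. Capitals mark the seed, bases 2 to 8, and the sequences are those of RefSeq on GRCm38.p6. The first set shares 1 seed and the second set another.

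mmu-miR-200b-3p: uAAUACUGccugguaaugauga
mmu-miR-200c-3p: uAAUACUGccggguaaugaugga
mmu-miR-429-3p: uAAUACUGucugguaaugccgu

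mmu-miR-200a-3p: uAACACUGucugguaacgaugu
mmu-miR-141-3p: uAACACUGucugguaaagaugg

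The promoters of Epcam and Snai1 are shown because they hold the E-box of the Snail and Zeb factors. RefSeq promoter windows on GRCm38.p6 were searched for CAGGTG on both strands (CACCTG is the same box read on the other strand) over the 250 bases before the start, in Epcam, Snai1, Twist1, Vim and Zeb2. Epcam held 2 boxes and Snai1 held 1, and the windows of Twist1, Vim and Zeb2 held 0. Of all 32851 promoter windows of this length, 17.2% held at least 1 box and 2.06% held 2 or more. The box belongs to many promoters, and a match is not evidence of binding. Capitals mark the boxes in the 2 sequences, which lie on the plus strand at chr17:87635729-87635978 for Epcam and chr2:167537945-167538194 for Snai1.

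Epcam: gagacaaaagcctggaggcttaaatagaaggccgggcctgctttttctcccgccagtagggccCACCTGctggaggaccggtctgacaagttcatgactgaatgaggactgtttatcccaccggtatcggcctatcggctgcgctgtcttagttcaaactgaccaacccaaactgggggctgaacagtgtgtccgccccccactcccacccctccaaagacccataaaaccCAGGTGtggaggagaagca
Snai1: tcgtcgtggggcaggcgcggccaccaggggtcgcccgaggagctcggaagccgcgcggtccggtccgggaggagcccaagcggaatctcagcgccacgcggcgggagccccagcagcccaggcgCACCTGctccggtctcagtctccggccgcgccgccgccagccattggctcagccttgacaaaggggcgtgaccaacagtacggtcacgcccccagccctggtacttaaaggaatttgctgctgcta

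**Figure D1:**
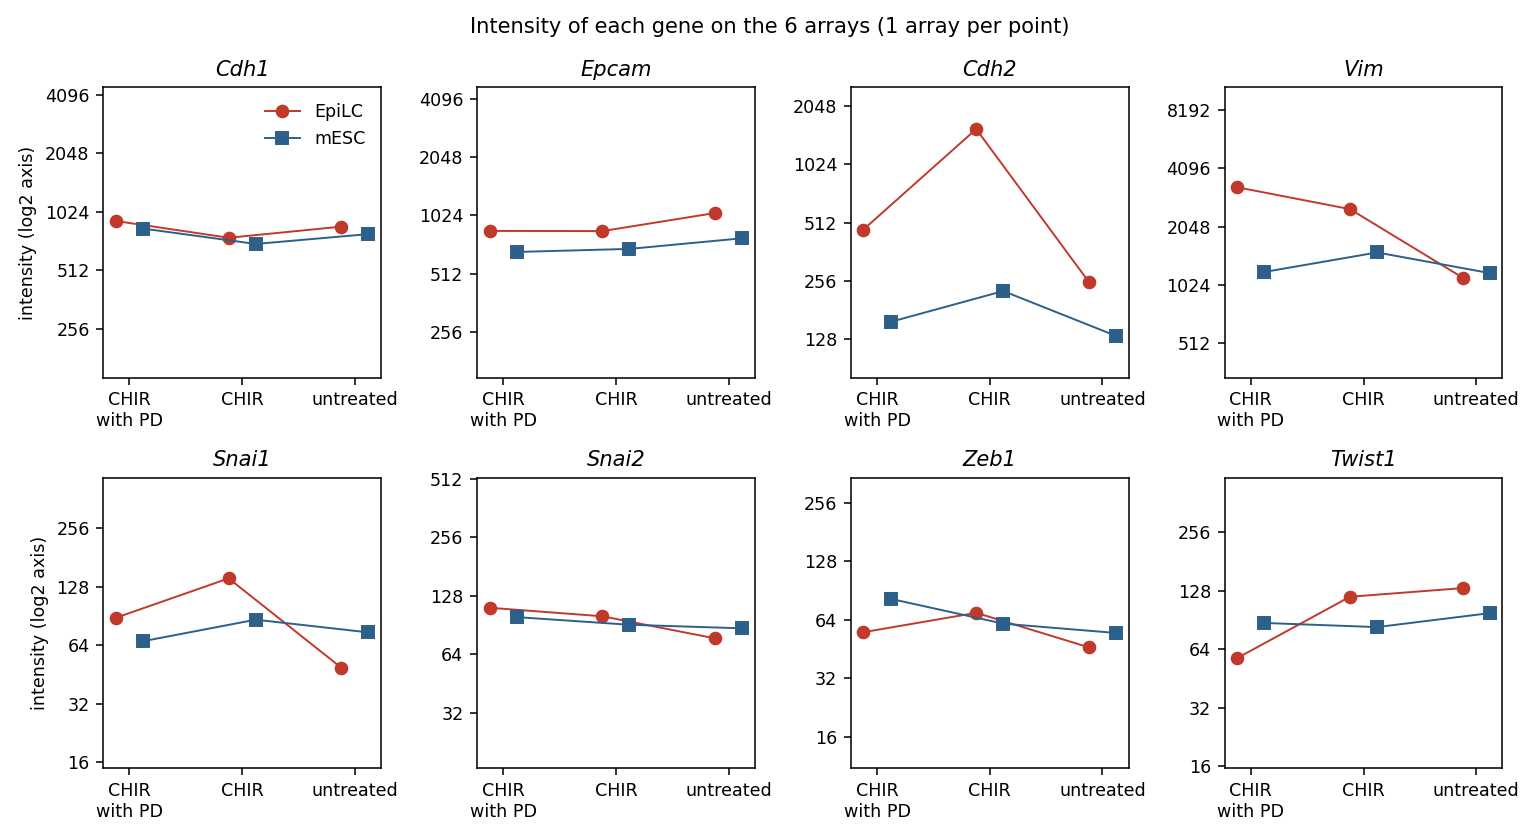
Intensity (log2 axis) of the 8 measured genes on the 6 arrays, 1 array per point, with EpiLC as circles and mESC as squares under CHIR with PD, CHIR, and no treatment. Cdh2 stands out at 1553.5 in EpiLC under CHIR, while Cdh1 stays between 699.2 and 918.0 on all 6 arrays.

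Cdh2 was the gene of the set that varied most. Its intensity was 471.9 under CHIR with PD, 1553.5 under CHIR and 253.0 without treatment in EpiLC, against 157.7, 227.4 and 133.6 under the same 3 treatments in mESC. All EpiLC arrays were above all mESC arrays, the treated arrays of each state were above the untreated one, and CHIR alone gave the highest value in each state. The range over the 6 arrays was 11.6-fold, and 0.609% of all genes had a wider one. CHIR against untreated gave a log2 difference of 2.53 on the brighter and 2.71 on the dimmer of its 2 probes in EpiLC, and of 0.76 and 0.78 in mESC. In bulk cultures, fewer or more cells of a type and less or more RNA per cell cannot be told apart, which holds for all values given here.

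Cdh1 varied little. It was at 918.0 under CHIR with PD, 752.5 under CHIR and 858.7 untreated in EpiLC, against 839.3, 699.2 and 785.9 in mESC. The values of the 2 states overlapped, and in each state CHIR alone gave the lowest and CHIR with PD the highest value. In mESC the 2 probes of Cdh1 differed for CHIR with PD against untreated, with 0.21 on the brighter and -0.02 on the dimmer. The whole range was 1.31-fold, and 65.8% of all genes had a wider one. In the EpiLC culture in which Cdh2 was highest, Cdh1 was lower than in untreated EpiLC by a log2 difference of -0.19, and the step was -0.17 in mESC.

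Epcam was slightly higher in EpiLC. Its intensity was 851.3 under CHIR with PD, 849.6 under CHIR and 1053.1 untreated in EpiLC, and 663.2, 687.8 and 780.1 in mESC. The 3 EpiLC arrays lay above the 3 mESC arrays, as they did for 2 of the 8 genes (Cdh2 and Epcam) and 12.4% of all genes, and in each state the untreated array was the highest. The steps with CHIR were small, at -0.31 in EpiLC and -0.18 in mESC.

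Vim had another profile. In EpiLC it was at 3267.5 under CHIR with PD, 2520.8 under CHIR and 1117.6 untreated, against 1195.9, 1507.9 and 1180.3 in mESC. The untreated states were close to each other (log2 difference -0.08), the treated EpiLC arrays stood above all others, and the EpiLC value with CHIR and PD was above that with CHIR, whereas in mESC it was below. Both probes showed this for the PD step, with 0.32 and 0.43 in EpiLC and -0.20 and -0.47 in mESC. Cdh2 and Vim were both high in EpiLC under CHIR, but went apart when PD was present.

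Among the transcription factor genes, Snai1 was the one with a large step under CHIR. It was at 88.5 under CHIR with PD, 141.2 under CHIR and 48.9 untreated in EpiLC, against 67.0, 86.5 and 74.4 in mESC. The lowest and the highest of the 6 values both belonged to EpiLC, and CHIR alone gave the highest value in each state. The step with CHIR in EpiLC was 1.53 (log2), 2.89-fold, and it was 0.22 in mESC. These values are near the array medians, and with a constant of 64 in place of the lowest value of 16 the EpiLC step was 0.97, just under 2-fold.

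Snai2 hardly varied, with 111.2, 100.5 and 77.3 in EpiLC under CHIR with PD, CHIR and no treatment, and 99.5, 90.9 and 87.1 in mESC. Its range was 1.44-fold, and 45.2% of all genes had a wider one. Zeb1 was at 55.3, 69.6 and 46.2 in EpiLC and at 82.2, 61.2 and 54.8 in mESC, and exceeded the array's median over all probes on 2 of the 6 arrays. The states overlapped for both genes, and the highest value of Zeb1 was in mESC under CHIR with PD.

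Twist1 was low where both inhibitors were present in EpiLC. It was at 57.7 under CHIR with PD, 119.4 under CHIR and 132.3 untreated in EpiLC, against 87.5, 83.3 and 98.3 in mESC. The 5 other arrays lay between 83.3 and 132.3. The step with PD in EpiLC was -1.05 (log2), and it was 0.07 in mESC. The EpiLC step became -0.66 with a constant of 64, and it was also under 2-fold after quantile normalization. CHIR with PD against untreated EpiLC, -1.20, became -0.77 with that constant.

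**Figure D2:**
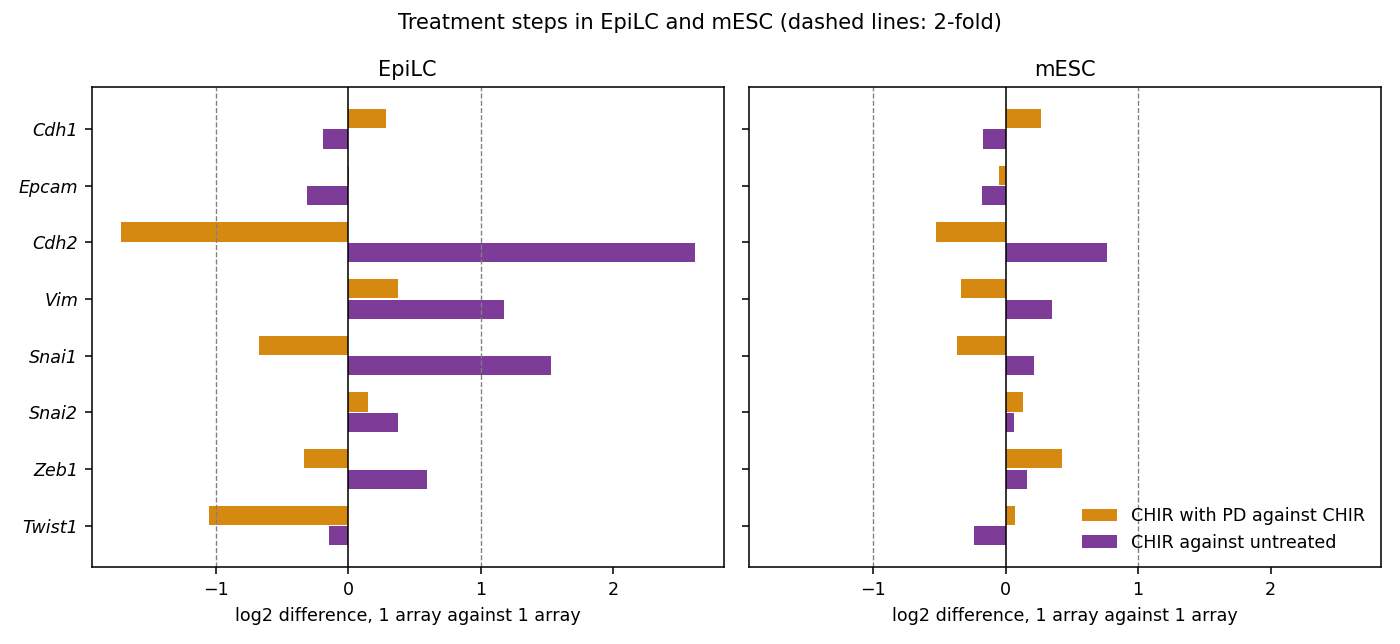
Log2 difference of 1 array against 1 array for CHIR with PD against CHIR and for CHIR against untreated, in EpiLC (left) and mESC (right), with dashed lines at 2-fold. The bars of Cdh2, Snai1, Vim and Twist1 pass a line in EpiLC, and no bar does in mESC.

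Counted over the set, CHIR left 3 of the 8 measured genes at least 2-fold higher in EpiLC (Cdh2, Snai1 and Vim) and 0 lower, where 1.77% of all genes were higher and 0.929% lower. The median of the 8 was 0.49 (log2) beside -0.03 for all genes. With PD added to CHIR, 2 of 8 were at least 2-fold lower (Cdh2 by a log2 difference of -1.72 and Twist1) and 0 higher, where 1.01% and 1.04% of all genes were. Against untreated EpiLC, CHIR with PD left Vim at least 2-fold higher (1.55) and Twist1 lower (-1.20), where 2.62% and 1.49% of all genes were. Cdh2 was still 0.90 above untreated EpiLC under both inhibitors. These 3 comparisons share arrays.

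In mESC, 0 of the 8 genes were at least 2-fold apart for CHIR (0.338% of all genes were), for PD added to CHIR (0.775%) or for CHIR with PD against untreated cells (1.47%). The signs of Cdh2 matched those in EpiLC at smaller size, with 0.77 for CHIR and -0.53 for PD added to CHIR. EpiLC minus mESC, the response of Cdh2 differed by 1.85 for CHIR and by -1.19 for PD added to CHIR, and that of Snai1 by 1.31 for CHIR. For CHIR with PD against untreated cells, the responses of Vim (1.53), Snai1 (1.01) and Twist1 (-1.03) differed by at least 2-fold. For PD added to CHIR, 4 of the 8 genes had opposite signs in the 2 states, as 45.6% of all genes did. These differences between the states could not be tested, since 1 array per group leaves no error for them.

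Between the states, the size depended on the treatment. In untreated cells 0 of 8 genes were at least 2-fold apart (3.76% of all genes were), and Cdh2 was the farthest at 0.92. Under CHIR Cdh2 alone was at least 2-fold higher in EpiLC, by 2.77 (2.45% of all genes were higher). Under CHIR with PD, Cdh2 (1.58) and Vim (1.45) were at least 2-fold higher (3.29% of all genes were). Snai1 had no fixed order, being lower in EpiLC without treatment (-0.61) and higher under CHIR (0.71) and under CHIR with PD (0.40).

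A limma fit of state and treatment without interaction was made across all 22180 genes, with 3 arrays per state and 2 per treatment, and calls were made at a Benjamini-Hochberg adjusted p under 0.05. Its error is the departure from additive effects. Cdh2 rose in EpiLC by 1.76 (SE 0.34, limma adjusted p = 0.0345), with EpiLC higher under 3 of 3 treatments. It was the only one of the 8 genes past the threshold, where 4.15% of all genes rose and 4.15% fell. This call was lost under 5 of 10 alternative settings, over which the difference ran from 1.25 to 2.18 and the limma adjusted p from 0.0233 to 0.359. One of the 5 left out the arrays with CHIR and PD (1.85, limma adjusted p = 0.0675). Epcam differed by 0.37 (SE 0.10, limma adjusted p = 0.09, higher under 3 of 3 treatments) and passed the threshold under 2 of 10 alternatives, and Vim differed by 0.70 (SE 0.28, limma adjusted p = 0.201).

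For the other genes the fit gave intervals around small differences between the states. The difference of Cdh1 was 0.12 with a 95% interval of -0.12 to 0.36, that of Snai2 was 0.04 with an interval of -0.25 to 0.33, and that of Zeb1 was -0.21 with an interval of -0.61 to 0.19. The intervals of Snai1 (-0.46 to 0.80) and Twist1 (-0.46 to 0.69) were wider. These intervals hold the differences that remain compatible with the data in a fit with 2 residual degrees of freedom per gene. The limma moderation borrows variance from all genes and adds degrees of freedom, so the intervals rest on more than those 2. They are not a limit of detection.

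For the treatments over both states, 0 of the 8 genes passed the limma threshold. For CHIR 0% of all genes did, and 2 of the 8 genes and 1613 of all genes had an unadjusted p under 0.05. Cdh2 was at 1.69 (SE 0.41, limma adjusted p = 0.581), higher in 2 of 2 states, and Snai1 at 0.87 (SE 0.31, limma adjusted p = 0.671), also higher in both. For PD added to CHIR, Cdh2 was at -1.12 (SE 0.41, limma adjusted p = 0.843), where 0.018% of all genes passed and 1 of the 8 genes and 1280 of all genes had an unadjusted p under 0.05. For CHIR with PD against untreated cells 0.0271% of all genes passed, and 1 of the 8 genes and 3173 of all genes had an unadjusted p under 0.05.

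**Figure D3:**
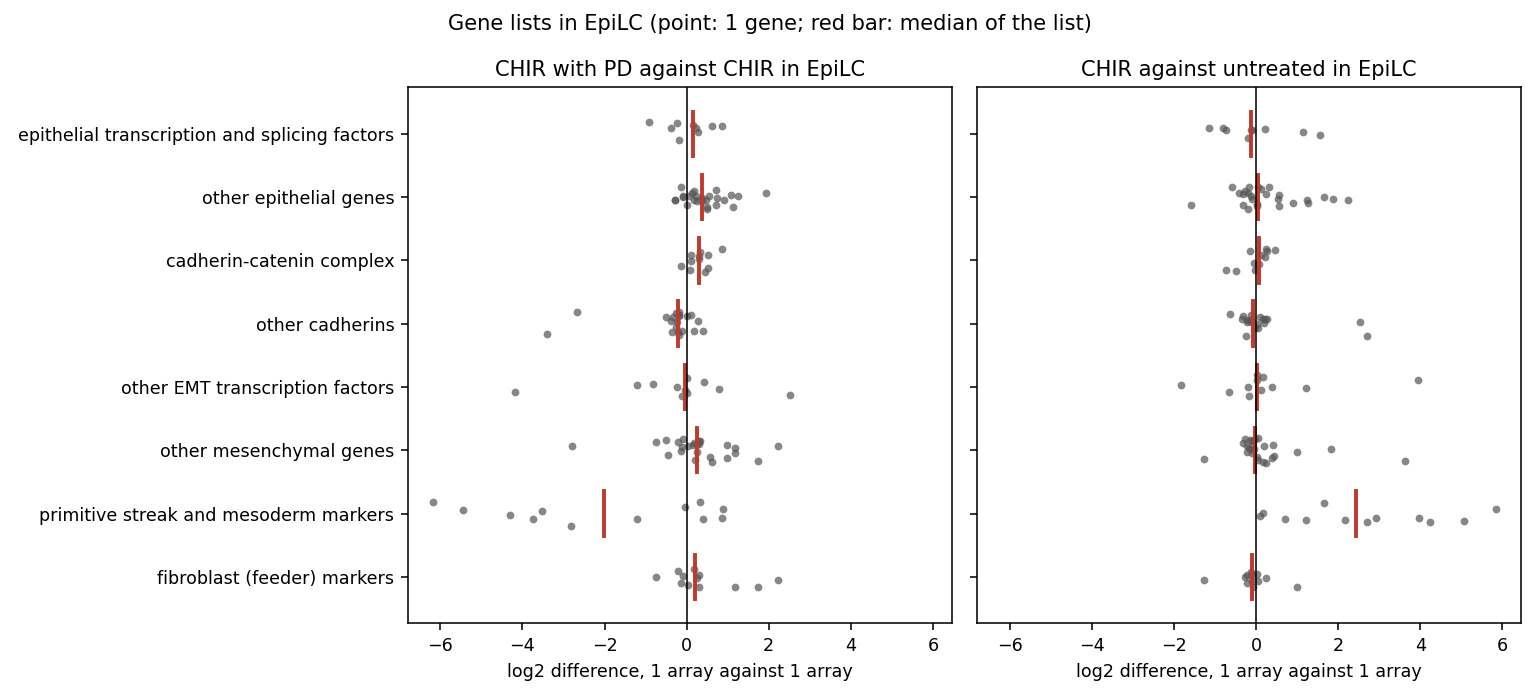
Log2 differences in EpiLC for CHIR with PD against CHIR (left) and CHIR against untreated (right), 1 array against 1 array, with each point a gene and each red bar the median of its list. Streak and mesoderm markers have a median of -2.02 on the left and 2.43 on the right, and a pair of cadherins moves with them.

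Most other cadherins had no large step where Cdh2 did. Of 20, 2 were at least 2-fold higher in EpiLC under CHIR and the same 2 were at least 2-fold lower when PD was added. They were Cdh11 and Cdh20, both type II cadherins. Of all genes, 1.77% were that much higher and 1.01% that much lower in these steps. Cdh11 was at 48.7 under CHIR with PD, 309.8 under CHIR and 53.3 untreated in EpiLC, and between 34.1 and 44.6 in mESC. Cdh20 was at 50.3, 535.1 and 81.9 in EpiLC, and between 58.8 and 82.1 in mESC. Under both inhibitors neither was above untreated EpiLC. In the limma fit Cdh10 rose in EpiLC by 1.55 (SE 0.13, limma adjusted p = 0.00412). It was the only one of the 20 that passed, near the share of all genes, of which 4.15% rose and 4.15% fell. The P-cadherin gene Cdh3 was at 206.3, 262.3 and 308.4 in EpiLC and at 180.0, 228.5 and 327.7 in mESC, lowest under both inhibitors in each state. The median of the list for CHIR in EpiLC was -0.07, close to the -0.03 of all genes.

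Of 11 genes of the cadherin-catenin complex, 0 were at least 2-fold apart in any treatment step of either state. Few of all genes were, with 0.338% to 1.47% in mESC and 0.929% to 2.62% per direction in EpiLC, so 0 is near that share. With PD added to CHIR, 10 of the 11 were higher in each state. The medians were 0.31 in EpiLC and 0.15 in mESC, beside -0.015 and -0.0112 for all genes, which was not tested. The beta-catenin gene Ctnnb1 was at 1627.0, 1510.0 and 1441.2 in EpiLC under CHIR with PD, CHIR and no treatment, and at 1646.8, 1575.5 and 1426.9 in mESC. In the fit Jup, which encodes plakoglobin, fell in EpiLC by 1.12 (SE 0.15, limma adjusted p = 0.0145), and Vcl, which encodes the actin linker vinculin, rose by 0.68 (SE 0.11, limma adjusted p = 0.0203).

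Other epithelial genes were more often at least 2-fold higher than lower where Cdh2 was highest. Under CHIR in EpiLC, 5 of 26 were at least 2-fold higher and 1 lower, where 1.77% and 0.929% of all genes were. The median was 0.05 beside -0.03 for all genes. Krt19, a keratin gene of simple epithelia, was at 643.7 under CHIR with PD, 588.2 under CHIR and 125.4 untreated in EpiLC, and at 374.1, 198.2 and 183.1 in mESC. The desmosome gene Dsp was at 1056.0, 641.9 and 175.6 in EpiLC and at 514.7, 343.7 and 287.2 in mESC. The claudin gene Cldn4 was at 1638.3, 1123.5 and 354.5 in EpiLC and at 1653.0, 911.4 and 642.1 in mESC. For these 3 genes the value was highest with both inhibitors and lowest without treatment, in each state. Rab25, a trafficking GTPase gene of epithelia, was the one at least 2-fold lower under CHIR in EpiLC (-1.59).

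When PD was added to CHIR, 4 of the 26 were at least 2-fold higher in EpiLC and 0 lower, where 1.04% and 1.01% of all genes were. In mESC 2 were at least 2-fold higher and 0 lower, where 0.775% of all genes were at least 2-fold apart. Krt18 was higher by 1.09 in EpiLC and by 1.06 in mESC, and Krt8 by 1.01 in mESC. In the fit of the states, the tight junction genes Ocln (1.08), Marveld2 (0.90), Cldn7 (0.80) and Cldn6 (0.75) rose in EpiLC and Tjp3 fell. This made 4 up and 1 down of 26, where 4.15% of all genes rose and 4.15% fell.

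Mesenchymal genes other than Vim did not move as a group with CHIR in EpiLC. Of 25, 2 were at least 2-fold higher and 1 lower, where 1.77% and 0.929% of all genes were. The median was -0.02 beside -0.03 for all genes. Pdgfra, a growth factor receptor gene of mesoderm, was at 32.4 under CHIR with PD, 223.5 under CHIR and 18 untreated in EpiLC. The untreated value is close to the lowest value of 16. The fibronectin gene Fn1 was at 2306.0, 3264.4 and 918.0 in EpiLC, and at 2780.0, 2290.3 and 1826.6 in mESC. The smooth muscle actin gene Acta2 was lower under CHIR, with a log2 difference of -1.28. With PD added to CHIR, 4 of 25 were at least 2-fold higher and 1, Pdgfra, lower, where 1.04% and 1.01% of all genes were. Under CHIR with PD, where Vim was highest, 18 of 25 were higher than in untreated EpiLC, with a median of 0.46 beside -0.05 for all genes. At least 2-fold higher were 5 of the 25 and at least 2-fold lower 0, where 2.62% and 1.49% of all genes were. Tagln, an actin-binding protein gene, was at 1606.5, 342.7 and 373.9 in EpiLC, and at 408.0, 153.9 and 168.9 in mESC, so that it was high with PD in each state. In the fit Mmp2 (1.87), Tagln (1.43), Col1a1 (1.38) and Axl (0.50) rose in EpiLC and Tgfbi fell (-1.70).

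Other transcription factors linked to EMT split in their direction. Of 11, 2 were at least 2-fold higher and 1 lower under CHIR in EpiLC, where 1.77% and 0.929% of all genes were. The forkhead gene Foxc1 was at 64.1 under CHIR with PD, 1163.7 under CHIR and 76.0 untreated in EpiLC, and between 70.3 and 81.0 in mESC. The organizer gene Gsc followed it on a smaller scale, with 79.7, 184.5 and 79.4 in EpiLC. The helix-loop-helix factor gene Tcf15 ran the other way, with 73.9, 130.4 and 465.4 in EpiLC and 174.4, 504.4 and 868.7 in mESC. Sox9 was at 1388.5 in EpiLC under CHIR with PD and between 219.4 and 258.6 on the 5 other arrays. In the fit Snai3 (0.70) and Tcf4 (0.83) rose and Klf8 (-1.51) and Tcf15 (-1.36) fell in EpiLC. This made 2 up and 2 down of 11, where 4.15% of all genes rose and 4.15% fell.

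The hairpin genes of the miR-200 family shown above were dim on all arrays. Mir200a lay between 32.7 and 41.3, Mir200b between 29.0 and 45.0, Mir200c between 24.5 and 28.4 and Mir141 between 17.4 and 23.6, all below the array medians, and Mir429 had no probe of its own. A hairpin probe does not measure the mature microRNA. Of the 9 hairpins measured in this list, 2 fell in EpiLC in the fit, Mir205 (-1.03) and Mir34a (-0.55), both near the lowest value of the arrays.

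Markers of other cell types were high on the array where Cdh2 was highest. All 12 streak and mesoderm markers were higher in EpiLC under CHIR, 9 of them at least 2-fold, and their summed intensity was 2147.0 under CHIR with PD, 12535.6 under CHIR and 1429.9 untreated in EpiLC, against 896.3, 1668.7 and 889.1 in mESC. Msgn1 alone was at 51.7, 3768.0 and 65.2 in EpiLC. Of 8 endoderm markers, with sums of 705.4, 1954.3 and 734.8, 3 were at least 2-fold higher under CHIR in EpiLC, where 1.77% of all genes were. The part of these cells in the values of Cdh2 and Snai1 was not tested. Without the CHIR pair of arrays Cdh2 rose in EpiLC by 1.25 (limma adjusted p = 0.0233), the lowest adjusted p of the 10 alternatives. That setting does not separate Cdh2 from these markers. In untreated cells 4 of the 12 streak and mesoderm markers were at least 2-fold higher in EpiLC and 1 lower, where 3.76% of all genes were at least 2-fold apart.

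Other markers were high where Vim was highest. The 9 neuroectoderm markers summed to 2088.2 under CHIR with PD, 1061.0 under CHIR and 1047.0 untreated in EpiLC, against 650.1, 639.2 and 710.7 in mESC, carried by Sox1, at 885.2 under CHIR with PD in EpiLC and between 43.2 and 64 on the 5 other arrays, and by Nes, at 688.0 there. Of the 9, 6 were lower under CHIR with PD than in untreated EpiLC and 1 was at least 2-fold higher, with a median of -0.13 beside -0.05 for all genes. The 12 fibroblast markers summed to 3379.5, 1328.1 and 1667.6 in EpiLC and to 1397.6, 957.8 and 1079.1 in mESC, carried by Tagln, Acta2 and Col1a1. All 12 also belong to the list of mesenchymal genes above, so their values are not a separate observation. Of these 12, 8 were higher and 4 lower under CHIR with PD than in untreated EpiLC. At least 2-fold higher were 2 of them, where 2.62% of all genes were. Pdgfrb was at 207.9 under CHIR with PD, 203.1 under CHIR and 102.5 untreated in EpiLC, and Lum, Dcn and Postn were between 18.5 and 42.7 on all 6 arrays. The part of these cell types in the values of Vim was not tested.

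**Figure D4:**
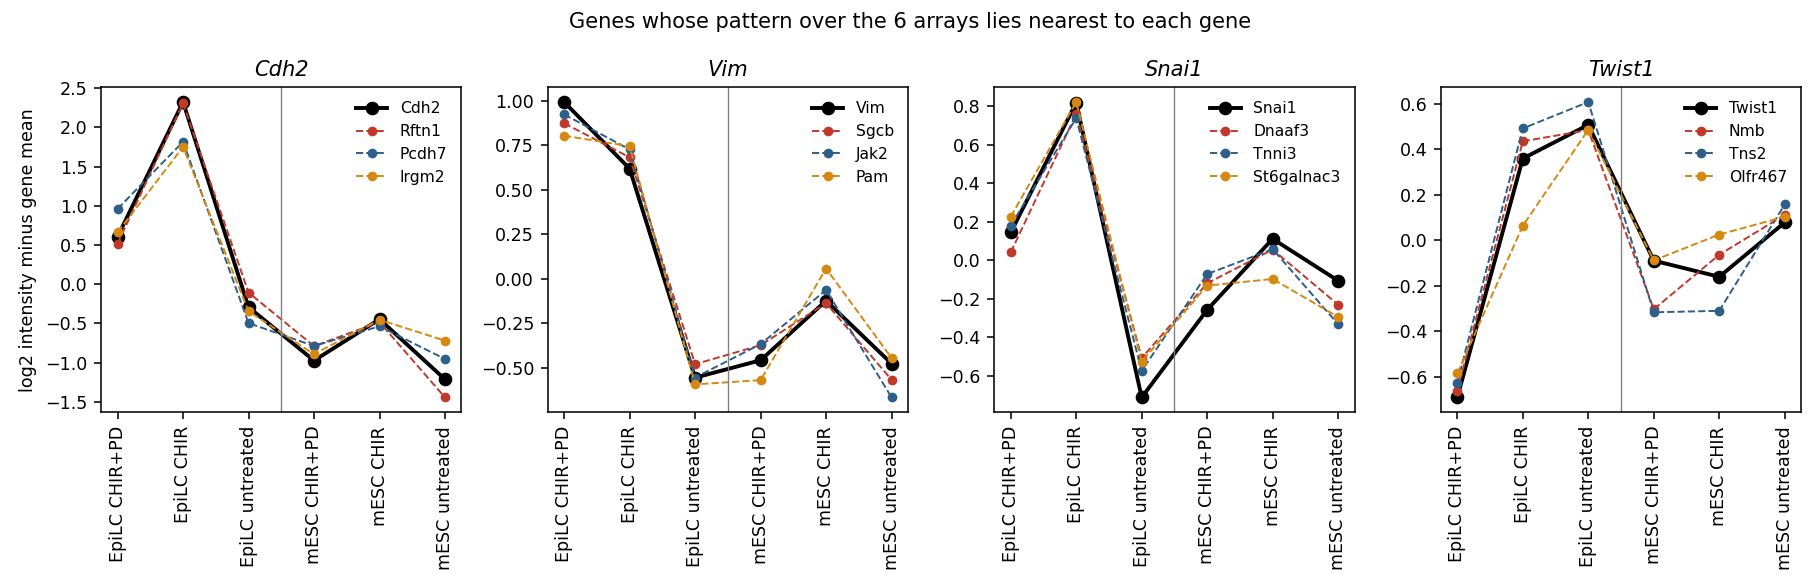
Log2 intensity minus the gene's mean over the 6 arrays for Cdh2, Vim, Snai1 and Twist1 (black) and for the 3 genes nearest to each, EpiLC arrays left of the vertical line and mESC arrays right of it. Rftn1 follows Cdh2 at a distance of 0.36, and Sgcb follows Vim at 0.20.

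Of the 8 genes, 4 had a range of at least 2-fold over the 6 arrays (13.9% of all genes did), and for these the nearest patterns were sought among 2846 named genes with such a range. Likeness was the Euclidean distance between centred log2 values over 6 arrays, given as a description. The nearest to Cdh2 were Rftn1, which encodes a lipid raft protein (0.36), the protocadherin gene Pcdh7 (0.73) and the GTPase gene Irgm2 (0.77). Rftn1 was at 202.2, 700.9 and 131.2 in EpiLC under CHIR with PD, CHIR and no treatment, and at 81.7, 101.0 and 51.9 in mESC. Nearest to Vim were the sarcoglycan gene Sgcb (0.20), the kinase gene Jak2 (0.25) and Pam, which encodes a peptide-amidating enzyme (0.315). Dnaaf3 (0.31), Tnni3 (0.34) and St6galnac3 (0.37) lay nearest to Snai1, and Nmb (0.25), Tns2 (0.33) and Olfr467 (0.37) nearest to Twist1.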

How the data were processed

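The deposited values were probe intensities of 6 Mouse Gene 2.0 ST arrays on a linear scale, normalized by the authors to a lowest value of 16. Per the series' design text GeneSpring GX 11.5 was used, and the normalization method is not given in the sources used here. Of 33793 probes, 23521 carry 1 gene symbol in the platform annotation, 1814 carry several and 8458 none, and 23328 matched RefSeq by Entrez ID. From the deposited intensities log2 values were averaged per symbol over probes with 1 symbol, which gave 22180 genes. State and treatment were fitted without interaction in limma 3.58.1 (R 4.3.3) with Benjamini-Hochberg adjustment over all genes and a threshold of 0.05, tested on simulated data first. With 1 array per group, p-values measure only the departure from additive effects, which may be technical, and precision is limited by how few arrays there are. Differences of 1 array against 1 array were counted at 2-fold, without a test. The genes and lists were chosen with earlier results of these data known. Named beside the 9 genes were up to 4 list genes with the largest difference in each comparison, list genes past the threshold, and for members with a range of at least 2-fold the 3 genes of nearest pattern. Lum and Postn fall outside that rule and were chosen after their values were seen. Alternatives changed the lowest value (subtracted, with a constant of 4 or 64 added before log2), normalization, probe choice, filter on dim genes, moderation of the variance and the arrays used.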

Additional observations from a re-analysis of the deposited data

Results flagged for a closer look

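For PD added to CHIR, 4 of the 8 genes had opposite signs in EpiLC and mESC, as 45.6% of all genes did, with 1 array per group, and in none of them was the difference between the states tested. For Vim the response in EpiLC minus that in mESC was 0.71 (log2), from 0.37 in EpiLC and -0.33 in mESC. For Twist1 it was -1.12, from -1.05 in EpiLC and 0.07 in mESC. For Zeb1 it was -0.76, from -0.33 in EpiLC and 0.43 in mESC, at intensities close to the array medians. For Epcam it was 0.0554, from 0.00 in EpiLC and -0.05 in mESC, and with 0.00 in EpiLC it had no direction there.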

How the results depend on the processing

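Of 112 counts recomputed under the alternatives, 93 stayed within 1.5 times. Of 582 values of single genes 560 held, 5 became weaker and 2 stronger. A further 15 moved in size, or changed sign without being past the threshold, and 0 called ones reversed. The limma count for EpiLC against mESC, 1841, was 1016 with a constant of 4 in place of the lowest value, 0 without moderation, and 945 to 1276 when the arrays of 1 treatment were left out. Of the 8 genes, 1 passed there, and 0 did with a constant of 4 or without moderation, and 0 to 1 with a treatment left out. With a constant of 64, and with trend and robust moderation, Epcam passed (limma adjusted p = 0.0372 and 0.0471) and Cdh2 did not (limma adjusted p = 0.0768 and 0.0654). For CHIR with PD against CHIR, 4 genes passed, against 1 with a constant of 64, 7 with trend and robust moderation and 0 without moderation. For CHIR with PD against untreated, 6 passed, against 1 with a constant of 4 or 64, 53 with trend and robust moderation and 0 without. Of genes at least 2-fold apart, the 2 for CHIR with PD against CHIR in EpiLC became 1 with a constant of 64 or quantile normalization, and the 2 for CHIR with PD against untreated in EpiLC became 1 with a constant of 64. Snai1, 1 of the 3 genes at least 2-fold higher for CHIR in EpiLC, was just under 2-fold with a constant of 64. The 0 between untreated EpiLC and mESC became 1 with the brightest probe (Cdh2). Of 16 responses to CHIR and to PD added to CHIR, the 4 differing between states by at least 2-fold became 2 with a constant of 64. The share of all genes whose responses differed by that much was not computed. The causes were not tested. The limma fit compares the states within each treatment, and the labels carry no replicate numbers to pair by. Leaving out dim genes kept 6 of the 8 genes.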

Other observations

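Of 9 epithelial transcription and splicing factors, which maintain the epithelial programme, 2 fell in EpiLC and 0 rose in the limma fit of the states, where 4.15% of all genes fell and 4.15% rose. Elf3 fell by 1.67 (SE 0.26, limma adjusted p = 0.0201) and was at 209.5 under CHIR with PD, 136.2 under CHIR and 61.8 untreated in EpiLC, against 669.9, 265.2 and 319.1 in mESC. Esrp2 fell by 1.26 (SE 0.14, limma adjusted p = 0.00801). The splicing factor gene Esrp1 was at 419.8, 541.9 and 621.4 in EpiLC and at 249.0, 366.3 and 625.5 in mESC, with the untreated array highest in each state. Its difference between EpiLC and mESC ran the other way, at 0.44 (SE 0.17, limma adjusted p = 0.188). Of the 9, 2 were at least 2-fold higher and 1 lower under CHIR in EpiLC, where 1.77% and 0.929% of all genes were. The median was -0.14 beside -0.03 for all genes.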
